A study of Mus musculus with 6 samples.

Results

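Genes that mark the surfactant-making, gas-exchange and secretory cells of the lung were examined in RNA of mouse lung adenocarcinoma cells that had been grown as tumours under the skin and sorted on CD133. The 10 genes were chosen by symbol, as named markers of these cells: Sftpa1, Sftpb, Sftpc, Sftpd, Abca3, Lamp3, Napsa, Scgb1a1, Aqp5 and Pdpn. Earlier results of these data were known when the choice was made. Of these, 9 have at least 1 probe set assigned to that gene alone, 14 probe sets in all, out of 45037 probe sets and 18193 genes on the array. Lamp3, a lamellar body membrane protein that is also made by mature dendritic cells, shares its probe set with another gene, so no value of Lamp3 is given.

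The tumours came from 344SQ, a single lung adenocarcinoma cell line of a KrasLA1/+; p53R172HdelG/+ mouse, injected subcutaneously into syngeneic hosts. Flow sorting split them into a CD133 high fraction, measured on 3 arrays, and a CD133 low fraction, measured on 3 arrays, and both therefore share the tumour genotype and the subcutaneous site. CD133 is the surface glycoprotein encoded by Prom1. The labels give no age, no treatment and no gate against host cells, and they do not tell whether each array stands for a mouse of its own, so each p-value here reflects the spread among these 6 samples, which may be technical.

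In the normal lung, alveolar type 2 cells secrete surfactant, a film of phospholipids and of the surfactant proteins A, B, C and D that keeps the air spaces from collapsing. The hydrophobic proteins B and C are cut from larger precursors and packed with lipid into lamellar bodies, whereas A and D are collectins that bind sugars of microbes. Alveolar type 1 cells are the flat cells across which gas is exchanged, and club cells are secretory cells of the airway lining. Lung adenocarcinomas often keep part of the type 2 programme, and napsin A and the surfactant proteins are used to recognise them.

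The arrays did not behave as 2 tight groups. Across all probe sets CD133 high replicate 1 had a mean Spearman correlation of 0.973 with the CD133 low arrays and of 0.931 with the remaining CD133 high arrays, a description across probe sets that are not independent. Spiked hybridisation controls averaged 10.38 on log2 scale on that array, against 11.29 and 11.04 on CD133 high replicates 2 and 3 and 10.19 to 10.51 on the CD133 low arrays. The 3′ minus the middle Gapdh control probe set, in log2 units, was −0.13, 0.44 and 0.46 on CD133 high replicates 1, 2 and 3. It was between −0.09 and −0.07 on the CD133 low arrays. Prom1 itself lay between 6.40 and 6.80 on the CD133 high arrays and between 5.49 and 6.06 on the CD133 low arrays, without overlap (limma, adjusted p = 0.297). Epithelial markers such as Cdh1 and Krt8 were at percentile 98.1 or above of their array on all 6 arrays, as did the leukocyte marker Ptprc and the collagen genes Col1a1 and Col3a1, so the RNA of both fractions holds transcripts of host cells as well. In such bulk RNA, fewer cells of a type and less RNA per cell cannot be told apart.

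The 300 bases around the annotated start of 3 members are printed to show the control regions of a surfactant gene with a bright probe set (Sftpb), a surfactant gene with a dim one (Sftpa1), and a lipid transporter with 2 probe sets at which the fractions did not overlap (Abca3). They come from RefSeq on GRCm38.p6, each with 250 bases before the start and 50 after it, and 6 of the 10 members have such an entry. Sftpb lies at chr6:72304360-72304659 on the plus strand, Sftpa1 at chr14:41131538-41131837 on the plus strand, and Abca3 at chr17:24351773-24352072 on the plus strand. Capitals mark the letters CTCAAG, the core of sites that the lung transcription factor NKX2-1 is known to bind, and TATAA, the core of the TATA box, each searched on both strands.
Sftpb: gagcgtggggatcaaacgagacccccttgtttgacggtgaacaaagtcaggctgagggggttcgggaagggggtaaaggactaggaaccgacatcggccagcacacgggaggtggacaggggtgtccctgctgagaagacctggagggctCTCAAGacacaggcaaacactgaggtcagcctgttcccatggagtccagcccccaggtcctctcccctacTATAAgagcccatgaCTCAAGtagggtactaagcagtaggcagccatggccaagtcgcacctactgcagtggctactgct
Sftpa1: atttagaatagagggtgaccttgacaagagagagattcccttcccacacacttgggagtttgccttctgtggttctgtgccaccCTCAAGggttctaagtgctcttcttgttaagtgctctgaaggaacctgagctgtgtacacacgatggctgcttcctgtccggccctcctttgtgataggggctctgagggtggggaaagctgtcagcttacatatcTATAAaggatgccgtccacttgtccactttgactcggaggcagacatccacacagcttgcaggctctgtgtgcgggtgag
Abca3: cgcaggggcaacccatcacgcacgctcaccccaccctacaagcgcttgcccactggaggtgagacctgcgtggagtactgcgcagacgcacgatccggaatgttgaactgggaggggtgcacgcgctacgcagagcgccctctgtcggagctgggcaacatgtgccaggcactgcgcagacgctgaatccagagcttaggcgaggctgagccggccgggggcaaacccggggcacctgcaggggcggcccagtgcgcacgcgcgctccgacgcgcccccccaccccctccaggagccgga
The Sftpb window holds CTCAAG 100 and 15 bases before the start and TATAA 30 bases before it. The Sftpa1 window holds CTCAAG 166 bases and TATAA 30 bases before the start. No match overlaps another. The windows of Abca3, Aqp5, Lamp3 and Pdpn hold neither run of letters. Of 32851 promoter windows of this length, 15.9% hold CTCAAG and 24.9% hold TATAA. A match describes the letters and is no evidence of binding.

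**Figure D1:**
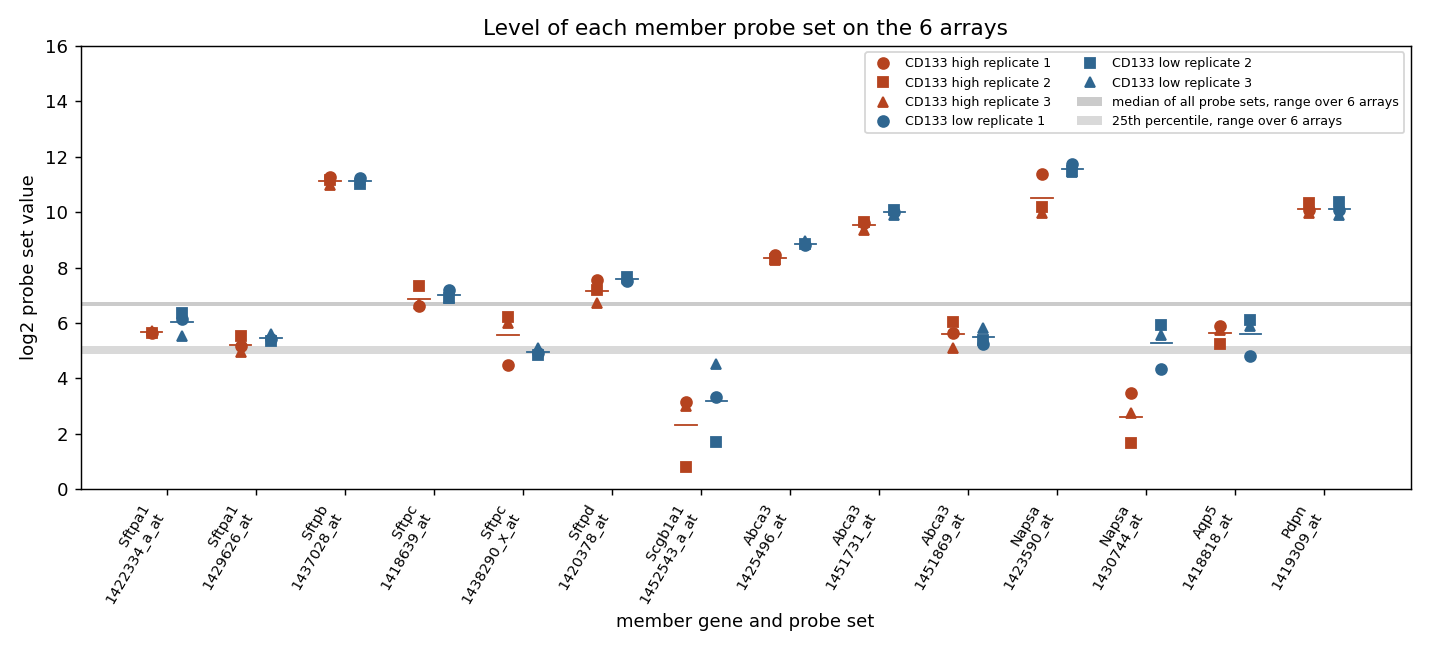
Log2 value of the 14 member probe sets (x axis) on each of the 6 arrays, CD133 high left and CD133 low right of each tick, with a short line at the mean of 3 arrays and grey bands for the median and the 25th percentile of all probe sets. Sftpb, Pdpn, Sftpd, 2 probe sets of Abca3 and 1 of Napsa lie above the median on all 6 arrays, and the Scgb1a1 probe set lies below the 25th percentile on all 6.

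By their place on the array the members were divided, as the plot of their levels shows. On all 6 arrays 6 probe sets of 5 genes lay above the array's median and 7 lay below it, and the main Sftpc probe set straddled it. Probes differ in how brightly they bind, so these places show which probe sets are well above the dim range and do not rank the genes by RNA amount. Where a gene has several probe sets, the one with the highest mean over the 6 arrays is its main one.

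None of the 14 probe sets passed the comparison of the fractions (limma, moderated test, adjusted p under 0.05 over all probe sets), against 0.182% of all probe sets that did. At an unadjusted p under 0.05 there were 4 of 14 (28.6%), 2 of Abca3 and 2 of Napsa, each with a negative difference, against 15.7% of all probe sets. Counted once per gene at the main probe set, these were 2 of 9 genes (22.2%), against 18.2% of all genes. The same 4 were the ones in which every CD133 high array lay below every CD133 low array, a pattern seen in 10.5% of all probe sets. The opposite pattern, seen in 10.3% of all probe sets, occurred in 0 of the 14. At the main probe sets the median difference of the 9 genes was −0.35, against 0.00 over all 18193 genes at theirs. Every difference is CD133 high minus CD133 low in log2 units.

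Sftpb, which encodes the surfactant protein that spreads and stabilises the lipid film, was the steadiest of the 14 probe sets in absolute range. Its log2 values were 11.26, 11.16 and 10.99 on the CD133 high arrays and 11.22, 11.03 and 11.15 on the CD133 low arrays, at percentile 94.6 to 95.5 of the array. The ranges of the fractions overlapped, and all 6 values lay within 0.27 of each other. The difference was 0.0043 (SE 0.15, 95% interval −0.34 to 0.35, limma adjusted p = 0.993), and its sign turned under some settings.

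Sftpc encodes the most hydrophobic surfactant protein, made in the lung by type 2 cells and their precursors. Its main probe set read 6.60, 7.33 and 6.70 on the CD133 high arrays and 7.19, 6.92 and 6.90 on the CD133 low arrays, at percentile 49.4 to 59.0. The CD133 high arrays lay on both sides of the CD133 low ones, with a difference of −0.13 (SE 0.26, 95% interval −0.73 to 0.48, limma adjusted p = 0.813). The second Sftpc probe set, 1438290_x_at, is one whose probes can also match other sequences. It read 4.46, 6.22 and 6.01 on the CD133 high arrays and 4.92, 4.84 and 5.11 on the CD133 low arrays. CD133 high replicates 2 and 3 were above the CD133 low arrays at this probe set and replicate 1 was below them, so the 2 probe sets of Sftpc disagree.

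The collectin genes had lower means in the CD133 high fraction without separating the fractions. Sftpd had log2 values of 7.55, 7.20 and 6.70 on the CD133 high arrays and of 7.52, 7.66 and 7.58 on the CD133 low arrays. Replicate 1 of the CD133 high fraction lay within the range of the CD133 low arrays and replicates 2 and 3 lay below it, and the difference was −0.43 (SE 0.25, 95% interval −1.02 to 0.16, limma adjusted p = 0.403). Sftpa1 lay below the median of every array at both of its probe sets. At the main one it read 5.64, 5.65 and 5.70 on the CD133 high arrays and 6.16, 6.36 and 5.53 on the CD133 low arrays. Its CD133 high arrays agreed within 0.07 while the CD133 low arrays spread on either side of them, with a difference of −0.35 (SE 0.29, 95% interval −1.04 to 0.34, limma adjusted p = 0.547).

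Abca3 encodes the ATP-driven pump that loads phospholipid into lamellar bodies. At its main probe set it read 9.62, 9.66 and 9.35 on the CD133 high arrays and 10.01, 10.08 and 9.90 on the CD133 low arrays. At the next brightest, 1425496_at, it read 8.46, 8.30 and 8.27 on the CD133 high arrays and 8.80, 8.83 and 8.96 on the CD133 low arrays. At both, all 3 CD133 high arrays, replicate 1 included, lay below all CD133 low arrays.

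The Abca3 differences were −0.45 (SE 0.15, 95% interval −0.81 to −0.10) and −0.52 (SE 0.14, 95% interval −0.86 to −0.17), which correspond to 1.37-fold and 1.43-fold lower values in the CD133 high fraction. Neither passed over the whole array (limma, adjusted p = 0.297 and 0.291), although both differences exceed the SDs within the fractions of 0.08 to 0.17. The third Abca3 probe set, 1451869_at, was dim, at 5.11 to 6.03 on the CD133 high arrays and 5.25 to 5.81 on the CD133 low arrays, with overlapping fractions and a difference of 0.11 (SE 0.34). Both brighter probe sets stayed negative under every setting tried. Without CD133 high replicate 1, 1425496_at passed (−0.58, limma adjusted p = 0.0221) and the main probe set did not (−0.49, adjusted p = 0.0519).

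Napsa encodes napsin A, the aspartic protease that helps to cut the precursor of surfactant protein B. In the mouse its transcript is also found in kidney and in dendritic and B cells. Its main probe set read 11.38, 10.20 and 9.98 on the CD133 high arrays and 11.74, 11.49 and 11.44 on the CD133 low arrays. CD133 high replicate 1 was just below the lowest CD133 low array, and replicates 2 and 3 were more than 1 log2 unit below all of them.

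Napsa averaged 10.52 ± 0.75 on the CD133 high arrays and 11.56 ± 0.16 on the CD133 low arrays (SD, n = 3 each), a difference of −1.04 (SE 0.36, 95% interval −1.90 to −0.18) or 2.05-fold lower. It did not pass over the whole array (limma, adjusted p = 0.297). The second Napsa probe set, 1430744_at, read 3.46, 1.66 and 2.75 on the CD133 high arrays and 4.34, 5.92 and 5.58 on the CD133 low arrays, in the dim range. Its difference was −2.66 (SE 0.63, limma adjusted p = 0.246). It separated the fractions in the same direction, but a size drawn from values so near the bottom of the scale is not given as a fold. With values below 5 set to 5 its difference was −0.50.

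The call for Napsa turned on 1 array. Without CD133 high replicate 1 the main probe set fell by 1.47 on the log2 scale (SE 0.14, limma adjusted p = 0.0037), and 1430744_at passed as well (−3.08, adjusted p = 0.0249). In that comparison 21.3% of all probe sets passed, 4277 higher and 5326 lower, and of the members 4 of 14 did, 3 lower and 1 higher. The higher one was the second Sftpc probe set (1.15, adjusted p = 0.0349), with its main probe set at 0.01. Per gene at the main probe set, 1 of 9 members passed without CD133 high replicate 1, against 26.3% of all genes. Array weights, estimated from how far each array departs from its own fraction, brought both Napsa probe sets and 1425496_at of Abca3 past the threshold (limma, adjusted p = 0.0353, 0.0499 and 0.0460). In that fit 10.7% of all probe sets passed. The weights come from the same values, so this is not separate support.

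**Figure D2:**
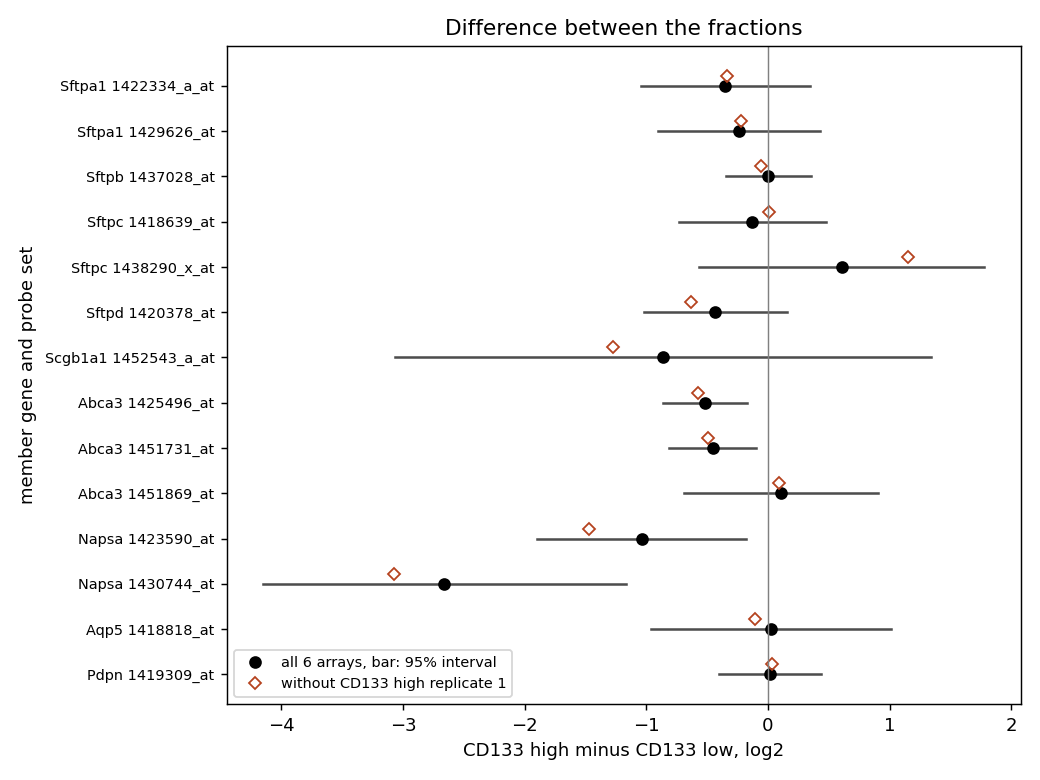
Difference of each member probe set, CD133 high minus CD133 low in log2 units (x axis), with the 95% interval of the moderated model over all 6 arrays, and the value without CD133 high replicate 1 as open diamonds. Both Napsa probe sets and 2 of the 3 Abca3 probe sets have intervals below 0, while Sftpb and Pdpn sit at 0.

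The medians of the leukocyte and dendritic marker lists moved across the same arrays as Napsa. Those of the macrophage, fibroblast and lymphatic lists did not, although single genes of these lists did. Relative to the mean of the CD133 low arrays, Napsa was at −0.18, −1.36 and −1.58 on CD133 high replicates 1, 2 and 3. The median of 5 pan-leukocyte markers was at 0.04, −0.88 and −1.08 on these arrays, and that of 9 mature dendritic cell markers at 0.13, −0.89 and −0.66. On the same arrays the macrophage median was at 0.20, 0.18 and 0.12. The fibroblast median was at −0.02, 0.06 and 0.31 and the lymphatic median at 0.09, 0.19 and 0.38. The epithelial median was at 0.04, −0.18 and −0.35. Cd68 and Siglecf (macrophage), Pecam1 (lymphatic) and Thy1 (fibroblast) lay below every CD133 low array on CD133 high replicates 2 and 3. Over all 6 arrays, 4 of 6 macrophage, 5 of 7 fibroblast and 3 of 6 lymphatic markers had positive differences. Summed on the linear scale, the leukocyte markers ran from 26345 to 44380 on the CD133 high arrays and from 41216 to 42745 on the CD133 low arrays. The dendritic markers ran from 9193 to 13709 on the CD133 high arrays and from 15340 to 16197 on the CD133 low arrays. By limma 0 of 5 leukocyte markers and 0 of 9 dendritic markers passed (unadjusted p under 0.05 in 2 and 3), and none of them was at 0 on any array.

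Among them Ccr7, a homing receptor of mature dendritic cells and lymphocytes, differed by −2.67 (SE 0.36, limma adjusted p = 0.0633) and Flt3, a growth factor receptor of dendritic cell precursors, by −0.82. Cd83, a surface protein of mature dendritic cells, differed by −0.63, Coro1a, an actin regulator of leukocytes, by −0.83, Cd52 by −1.20 and Laptm5, a lysosomal protein of leukocytes, by −0.64. Other markers of these lists had positive differences, Ptprc of 0.03, Cd53 of 0.21, Il12b of 0.41 and Cd40 of 0.40, so that 3 of 5 leukocyte markers and 7 of 9 dendritic markers had negative ones. The Gapdh contrast given above was also higher on CD133 high replicates 2 and 3 than on the other arrays. The part of these cells in the Napsa difference was not tested. Nor was the part of RNA quality in Napsa or in any other difference that rests on those arrays.

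Of the 3 genes whose centred log2 values lay nearest to those of Napsa over the 6 arrays, the first was Cd69, an early activation antigen of lymphocytes, with a root mean square difference of 0.06. Fbl, a nucleolar methyltransferase of ribosomal RNA, followed at 0.07 and Intu, a gene of cilium formation, at 0.08. Cd69 read 10.83, 9.55 and 9.30 on the CD133 high arrays and 11.13, 10.97 and 10.92 on the CD133 low arrays. Napsa alone among the members had both a mean above the median and a range above 1, so nearest genes were sought for it alone.

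**Figure D3:**
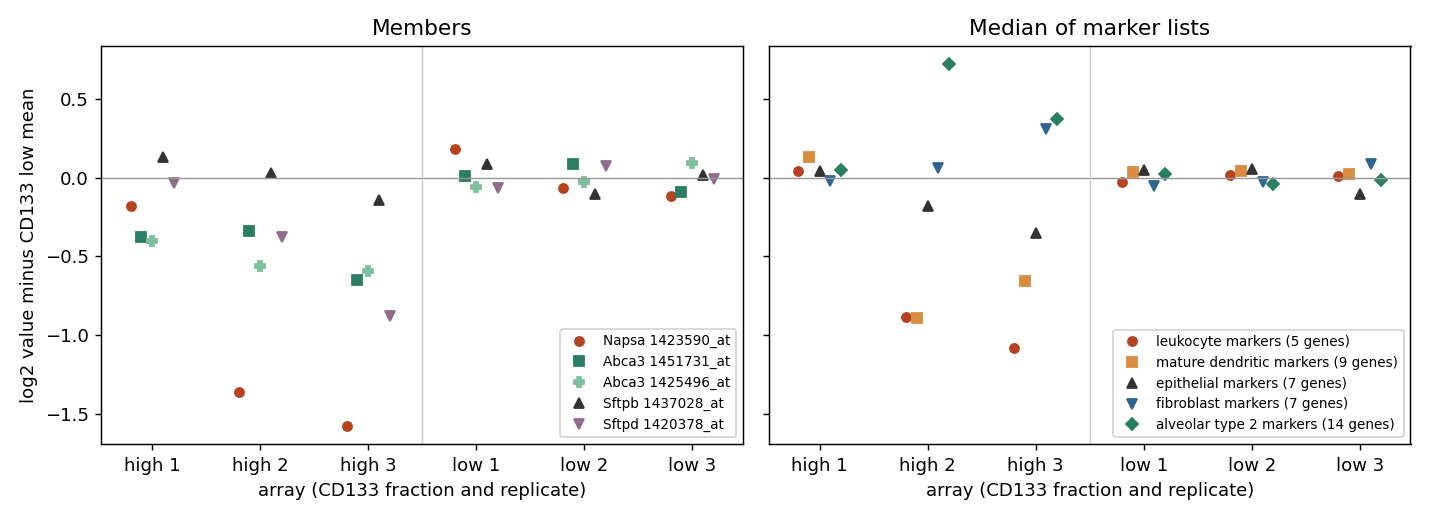
Log2 value minus the mean of the CD133 low arrays (y axis) on each array, for Napsa, the 2 brighter Abca3 probe sets, Sftpb and Sftpd on the left and for the medians of 5 marker lists on the right. Napsa, the leukocyte markers and the dendritic markers are far below 0 on CD133 high replicates 2 and 3 and close to the CD133 low arrays on replicate 1, whereas both Abca3 probe sets are below the CD133 low arrays on all 3.

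The club cell and alveolar type 1 members gave no separation. Scgb1a1, which encodes the abundant secretoglobin of club cells, read 3.14, 0.80 and 3.02 on the CD133 high arrays and 3.32, 1.72 and 4.50 on the CD133 low arrays, between percentile 3.42 and 19.7. All 6 values lie near the bottom of the scale, so no fold is given, and with values below 5 set to 5 no difference is left. Aqp5, a water channel of type 1 cells and of glands, read 5.88, 5.25 and 5.74 on the CD133 high arrays and 4.79, 6.09 and 5.90 on the CD133 low arrays, below the median of every array. Its difference of 0.02 (SE 0.41, 95% interval −0.96 to 1.01, limma adjusted p = 0.983) turned its sign with quantile normalization, with low values set to 5 and without any of 3 arrays in turn.

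Pdpn encodes podoplanin, a mucin-like membrane protein of type 1 cells that is also made by lymphatic endothelium, fibroblasts and some carcinomas. It read 10.08, 10.31 and 9.98 on the CD133 high arrays and 10.06, 10.36 and 9.91 on the CD133 low arrays, at percentile 88.0 to 91.4. The fractions covered the same range, with a difference of 0.01 (SE 0.18, 95% interval −0.41 to 0.43, limma adjusted p = 0.976) whose sign turned without any of 3 arrays in turn. Of 7 fibroblast markers 0 passed in limma (unadjusted p under 0.05 in 1) and the median difference was 0.14, with 5 positive and 2 negative differences. That 1 was Thy1, which was lower in the CD133 high fraction without overlap (−1.16, SE 0.31, limma adjusted p = 0.281). The summed level of the 7 markers was 38924 to 52543 on the CD133 high arrays and 39339 to 41961 on the CD133 low arrays, and none was at 0. Of 6 measured lymphatic markers 0 passed in limma (unadjusted p under 0.05 in 0), with a median of 0.16 and summed levels of 1461 to 2794 on the CD133 high arrays and 1227 to 1481 on the CD133 low arrays. The lymphatic regulator Prox1 read 4.80, 5.73 and 6.54 on the CD133 high arrays and 4.25, 2.70 and 5.18 on the CD133 low arrays, below the median of each. The lymphatic receptor Lyve1 read 8.64, 10.43 and 10.79 on the CD133 high arrays and 8.25, 8.76 and 8.99 on the CD133 low arrays. It lay above the range of the CD133 low arrays on CD133 high replicates 2 and 3 and did not pass over all 6 arrays (1.29, SE 0.55, limma adjusted p = 0.323). The list was split, with 3 positive and 3 negative differences, the negative ones in Pecam1 (−0.36), Flt4 (−0.20) and Reln (−0.0026). The part of these cells in the Pdpn level was not tested.

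Other genes of surfactant handling and of lung epithelial cell types were read from lists, also chosen with earlier results of these data known. The lists are not limited to genes that epithelial cells alone express. Over 62 measured genes of surfactant handling, type 2, type 1, club and ciliated cells, 0 passed in limma, 11 had an unadjusted p under 0.05 (17.7%, against 18.2% of all genes at their main probe sets), and the median difference was 0.03. In 9 genes every CD133 high array lay above every CD133 low array and in 6 below, patterns that 10.8% and 12.8% of all genes showed. Without CD133 high replicate 1, 11 of them passed as higher and 8 as lower (30.6% together), against 26.3% of all genes.

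Surfactant handling genes had a median difference of 0.08 over 12 measured genes, with 0 past the threshold and 3 at an unadjusted p under 0.05. Adgrf5, a receptor that restrains the surfactant pool, read 8.69, 8.95 and 9.03 on the CD133 high arrays and 8.38, 8.09 and 8.14 on the CD133 low arrays, without overlap (0.69, SE 0.17, limma adjusted p = 0.263). Scd1, a fatty acid desaturase, read 10.72, 10.15 and 10.02 on the CD133 high arrays and 11.12, 11.08 and 10.85 on the CD133 low arrays, also without overlap (−0.72, SE 0.22, adjusted p = 0.297). Pgc, an aspartic protease of the stomach and of type 2 cells, was in the dim range in both fractions, at 0.71 to 3.78 on the CD133 high arrays and 3.69 to 5.13 on the CD133 low arrays. Slc34a2, the phosphate transporter of type 2 cells, and Lpcat1, which makes surfactant phosphatidylcholine, differed by 0.28 each (SE 0.30 and 0.29).

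Of 14 other type 2 markers 11 had a positive and 3 a negative difference, with a median of 0.41, while 0 passed and 2 had an unadjusted p under 0.05 in limma. Only 8 of the 14 lay above the array's median on all 6 arrays. The list median was 0.28 without the dimmest 50% of probe sets and 0.31 with values below 5 set to 5. Several of them, among them Lyz2, Lyz1 and Chil1, are also made by macrophages or neutrophils, and Slc34a2 and Lpcat1 are in the surfactant list too. Cxcl15, a chemokine of lung epithelium, read 5.77, 6.74 and 8.84 on the CD133 high arrays and 5.43, 4.89 and 4.52 on the CD133 low arrays. All CD133 high arrays were above all CD133 low arrays, with the widest gap on replicate 3 (2.17, SE 0.75, limma adjusted p = 0.297). S100g, a calcium-binding protein, read 3.97, 2.15 and 2.86 on the CD133 high arrays and 4.70, 6.03 and 5.32 on the CD133 low arrays, below the median of every array (−2.35, adjusted p = 0.268). Cldn18, a tight junction protein of lung and stomach, read 9.64, 8.70 and 8.26 on the CD133 high arrays and 8.42, 7.90 and 7.86 on the CD133 low arrays, with overlap (0.80, adjusted p = 0.333).

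Type 1 markers other than Aqp5 and Pdpn had a median of 0.17 over 14 genes, with 0 past the threshold in limma and an unadjusted p under 0.05 in 4. Rtkn2, a marker of type 1 cells, read 5.09, 6.61 and 6.14 on the CD133 high arrays and 4.79, 3.78 and 4.39 on the CD133 low arrays (1.63, SE 0.48, limma adjusted p = 0.297). It lay below the median of every array, at percentile 12.9 to 47.4. Cav1, the caveolar coat protein that endothelium and fibroblasts also make, read 10.69, 11.72 and 11.78 on the CD133 high arrays and 10.55, 10.34 and 10.53 on the CD133 low arrays (0.93, SE 0.30, adjusted p = 0.297). Hopx, a homeodomain cofactor of type 1 cells, went the other way, at 10.45, 10.02 and 9.64 on the CD133 high arrays and 10.98, 10.85 and 10.58 on the CD133 low arrays (−0.76, SE 0.24, adjusted p = 0.297). In these 3 genes the fractions did not overlap.

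The 16 other club cell markers had a median of −0.09, and 0 passed or had an unadjusted p under 0.05 in limma. Scgb3a1, a secretoglobin of the airway, read 7.61, 8.58 and 8.51 on the CD133 high arrays and 7.87, 7.48 and 7.81 on the CD133 low arrays. Scgb3a2 differed by −0.25 (SE 0.37), at percentile 23.1 to 40.7. Cbr2, a carbonyl reductase of club cells, differed by 0.47 (SE 0.22), and Selenbp1, a selenium-binding protein, by 0.39 (SE 0.19). Only Selenbp1 of these separated the fractions. Chad and Krt15 were listed at 0 on CD133 high replicates 1 and 3 and on all 3 CD133 low arrays, and CD133 high replicate 2 read 1.57 and 3.07.

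**Figure D4:**
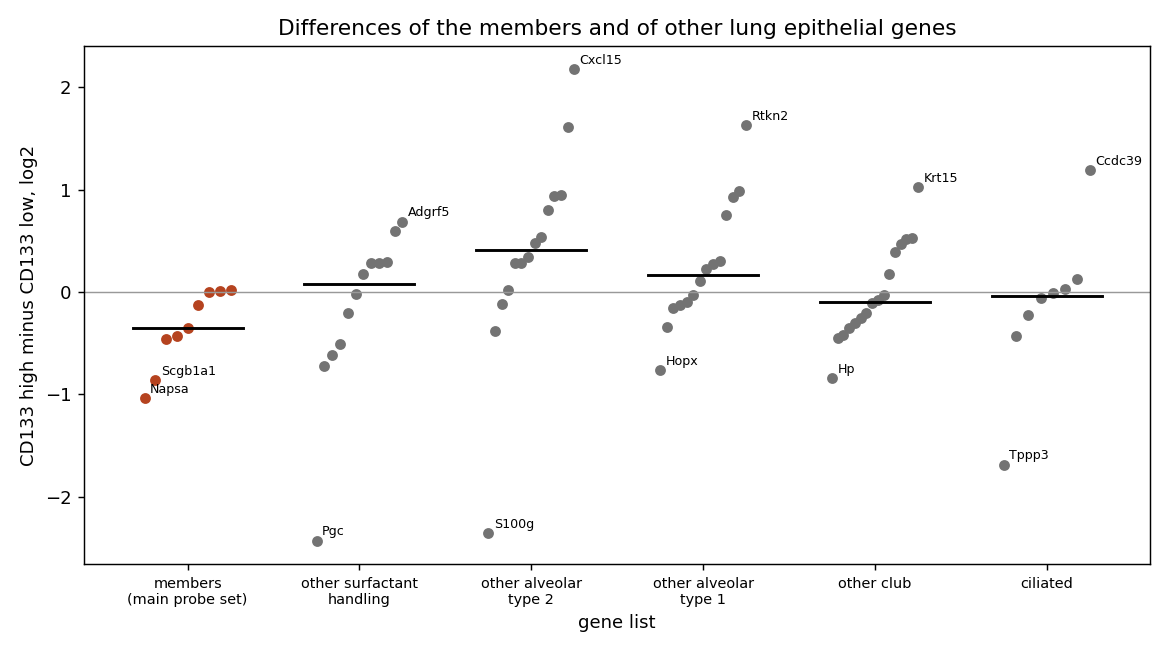
Difference of each gene at its main probe set, CD133 high minus CD133 low in log2 units (y axis), for the 9 measured members and for 5 lists of other surfactant handling, alveolar, club and ciliated cell genes, with the list median as a bar. The members' median of −0.35 lies below 0 and that of the other type 2 markers, 0.41, above it, and no point passed the test over the whole array.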

How the data were processed

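The authors deposited log2 values of 45101 probe sets on 6 arrays, a scale judged from the values, and the method of probe summary and normalization was not given in the sources used here. Per the labels' protocols, biotinylated cRNA was hybridised to Affymetrix mouse arrays. The 64 control probe sets were left out. Genes came from the platform annotation, in which 34945 probe sets have 1 gene, 932 several and 9160 none listed. Groups came from the stated CD133 fraction, and replicates were numbered in accession order, which pairs nothing. No 2 arrays shared more than 702 values.

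The two-sided test was limma 3.58.1 in R 4.3.3, run on the deposited log2 values with a trended variance and Benjamini-Hochberg adjustment over 45037 probe sets and a threshold of 0.05. The files were read with data.table, version 1.17.8. The steps were tested on simulated data. The number of arrays limits the precision, and an exact test of 3 against 3 cannot give a p below 0.1. Members, lists and settings were chosen with earlier results of these data known. Named genes were all members, up to 3 genes per list with the smallest p, and the 3 genes nearest to a member whose mean exceeded 6.65, the median of all, and whose range exceeded 1. Cdh1, Ptprc, Cd53, Il12b, Cd40, Col1a1, Col3a1, Flt4, Pecam1, Reln, Siglecf, Foxj1, Slc34a2, Lpcat1, Lyz2, Lyz1, Chil1, Scgb3a2, Chad and Krt15 were named after their values were seen.
The settings tried were quantile normalization, equal 75th percentiles, leaving out the dimmest 50% of probe sets, values below 5 set to 5, no or a robust variance trend, array weights, averaging the probe sets of a gene, dropping those of shared sequence, and leaving out each array.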

Additional observations from a re-analysis of the deposited data

How the results depend on the processing

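With 82 probe sets past the threshold over the whole array, quantile normalization gave 84, equal 75th percentiles 157, leaving out the dimmest 50% of probe sets 175, values below 5 set to 5 gave 36, no variance trend 7, a robust trend 185 and array weights 4808. Leaving out each array in turn gave 0 to 9603, the highest without CD133 high replicate 1. Of the members' 14 probe sets 0 passed, 3 did with array weights, and 0 to 4 did when each array was left out, 4 without CD133 high replicate 1. At an unadjusted p under 0.05 these settings gave 2 to 6 of the members in limma and 6.64% to 36.8% of all probe sets; 6 members went with 32.2% (array weights) and 36.8% (without CD133 high replicate 1). The difference of Sftpb was −0.0644 with array weights and ran from −0.0583 to 0.0789 without each array. That of Sftpc was 0.24 as the mean of its probe sets and ran from −0.35 to 0.0089 without each array. The third Abca3 probe set ran from −0.11 to 0.35 without each array. Aqp5 was at −0.0784 with quantile normalization, at −0.0459 with values below 5 set to 5, and ran from −0.38 to 0.27 without each array. Pdpn ran from −0.0865 to 0.139 without each array. The cause was not tested. The remaining member probe sets kept their sign under all settings that left them a difference; the main Napsa probe set ran from −0.77 to −1.47 and the main Abca3 probe set from −0.36 to −0.51 without each array. No paired analysis was possible because the labels number no replicates. No scaling moved the median of all probe sets by more than 0.1.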

Other observations

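Ciliated cell genes had a median difference of −0.03 over 8 measured genes, with 0 past the threshold and 2 at an unadjusted p under 0.05 in limma. Tppp3, a tubulin-binding protein of ciliated and other cells, read 8.61, 6.50 and 7.14 on the CD133 high arrays and 9.34, 9.15 and 8.83 on the CD133 low arrays, without overlap (−1.69, SE 0.51, limma adjusted p = 0.297). Ccdc39, which is needed for the assembly of motile cilia, read 5.52, 7.16 and 6.53 on the CD133 high arrays and 4.85, 4.94 and 5.85 on the CD133 low arrays, with overlap. Foxj1, the regulator of motile cilia, differed by 0.12 (SE 0.59), at percentile 11.1 to 31.7.

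Of 6 keratinocyte markers 0 passed in limma, also at an unadjusted p under 0.05, with a median of 0.02. Ivl, a protein of the cornified envelope, read 5.09, 6.87 and 8.99 on the CD133 high arrays and 5.20, 5.62 and 4.88 on the CD133 low arrays. Of 6 macrophage markers 0 passed and 1, the mannose receptor gene Mrc1, had an unadjusted p under 0.05 in limma (0.58, SE 0.23), with a list median of 0.13. The macrophage list was split, with 4 positive and 2 negative differences, the negative ones in Cd68 (−0.64, SE 0.35) and Siglecf (−0.62, SE 0.36). Among 7 epithelial markers the median was −0.13, 0 passed in limma, and the tight junction gene Cldn7 (−0.73, SE 0.21) alone had an unadjusted p under 0.05.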
